A study of Oryzias latipes with 60 samples.

Results

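The 100 genes described here had lower transcript levels in xmrk transgenic medaka (Oryzias latipes) than in wild-type medaka in each of 3 control conditions. They are 100 of the 17881 genes with a mean level of 0.5 CPM or more, out of 20459 genes in the count table. CPM, a read count relative to the size of its library, was scaled for library composition with the TMM method. For every gene the median log2 CPM of wild-type fish was subtracted from that of transgenic fish, separately in untreated, saline and DMSO fish. The largest (least negative) of the 3 differences was the gene's score, and the 100 genes with the lowest scores are the members, so they were chosen by the measured levels of the 30 control fish. Fish given cisplatin or trametinib had no part in these medians, so the members were followed in them.

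xmrk is a mutant copy of the epidermal growth factor receptor gene found in Xiphophorus fish, and its product signals without a ligand. Its expression in pigment cells is known to drive melanoma, and medaka that carry the gene are used as a model of pigment-cell tumours. Signals from receptors of this family reach the nucleus in part through the kinases RAF, MEK and ERK. Trametinib inhibits MEK, and cisplatin crosslinks DNA. Bulk RNA from a whole animal mixes all of its tissues, so a smaller number of cells of a type and less RNA per cell cannot be told apart in any value below.

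Whole juvenile fish, about 10 mm long and 3 to 4 weeks old, were used. Cisplatin at 70 µM was given to 10 transgenic and 5 wild-type fish, and trametinib at 20 nM to 10 transgenic and 5 wild-type fish. The vehicle groups, saline for cisplatin and DMSO for trametinib, and the untreated group held 5 transgenic and 5 wild-type fish each. Drug and vehicle fish were kept in petri dishes for 5 days, and untreated fish in regular housing. Every transgenic fish carried xmrk and no wild-type fish did. The promoter of the transgene and the background of the line are not given in the labels. Any other genetic difference between the lines cannot be told apart from the transgene. Each library was taken as 1 fish, going by the number in its label. Nor do the labels say whether fish of a group shared a dish or a preparation day, so a shared dish or day and the group cannot be told apart, and p-values measure the spread between these libraries.

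Poly-A RNA was sequenced in 60 libraries, 35 transgenic and 25 wild type. Library totals lay between 34788594 and 67018564 counts with a median of 51038009, so that 1 CPM was about 51 reads at the median total before scaling with TMM. The table names genes by Ensembl identifier, and 0 of the 20459 identifiers matched the annotation table used here. For that reason the members are given by identifier, no function, position or sequence is given for them, and lists of pathway genes and cell-type markers could not be applied. In 6 libraries the TMM factor was under 0.8, 4 of them drug fish. The lowest factors were 0.234 in a transgenic saline fish (fish 17) and 0.291 in a transgenic cisplatin fish (fish 21). Test results that change without those 4 drug libraries are given beside the values concerned. The control libraries among the 6 were left out only in an alternative choice of the members.

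In the control fish, which chose the members, the median genotype difference over the 100 members was -1.33 on the log2 scale in untreated fish, -1.65 in saline fish and -1.50 in DMSO fish. These values describe the choice. The lowest scores belonged to ENSORLG00000019887, at -7.31, and ENSORLG00000001307, at -4.94. At the other end, ENSORLG00000018384, ranked 100, had a score of -0.76, and the first gene outside, ENSORLG00000009507, had -0.75. The boundary thus lay between genes that barely differed in score.

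In drug fish of either kind the members as a group were again lower in the transgenic line. The median genotype difference over the members was -1.49 under cisplatin and -1.50 under trametinib, where the medians over all 17881 genes were 0.0007 and -0.005. The middle part of the members, between the 25th and 75th percentiles, ran from -2.62 to -0.85 under cisplatin and from -2.59 to -0.75 under trametinib. Under each drug 95 of the 100 members had a difference below 0, against 49.9% of all genes under cisplatin and 50.6% under trametinib. Both differences were below 0 for 90 members, against a background of 21.8% of all genes. Both were at or under the score of the member ranked 100 for 63 members, against a background of 0.923%.

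**Figure D1:**
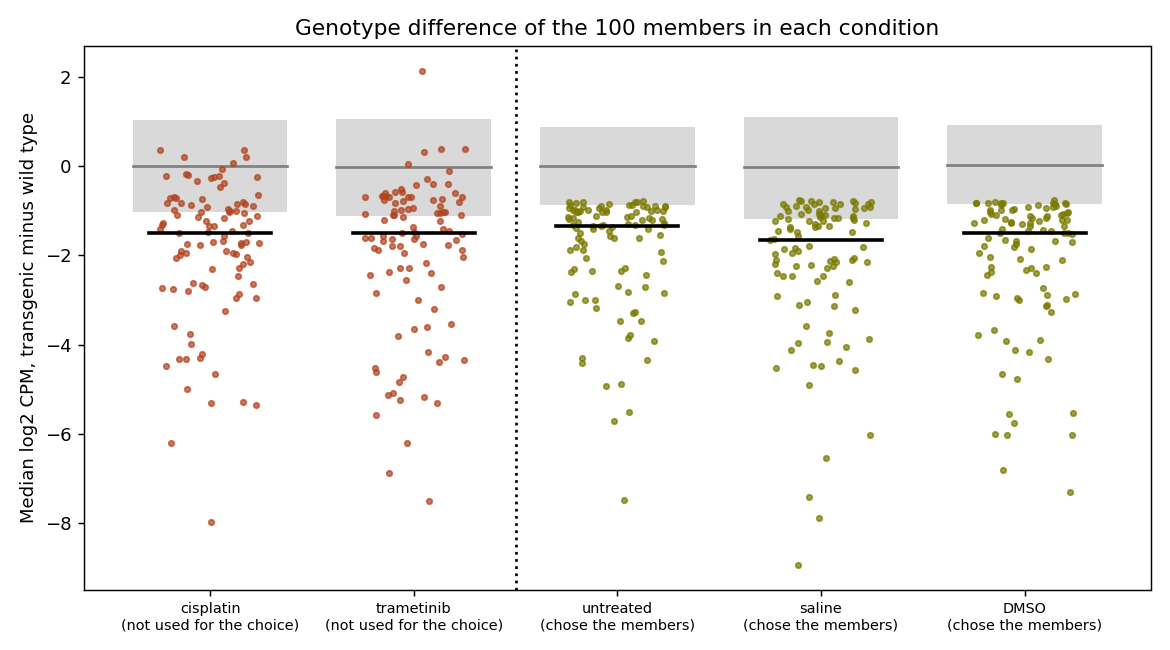
Genotype difference (median log2 CPM of transgenic fish minus that of wild-type fish) of each of the 100 members (points) in 5 conditions, with the median over members (black bar). Grey boxes hold the middle 95% of all 17881 genes and grey lines their median. Cisplatin and trametinib fish, left of the dotted line, were not used to choose the members, and the member medians there were -1.49 and -1.50.

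The genotype difference was tested in the 30 drug fish alone with edgeR's quasi-likelihood test over 18743 genes, and a gene with a Benjamini-Hochberg adjusted p under 0.05 is said to be called. Under cisplatin 37 members were called lower in transgenic fish and 0 higher, where 1.49% of all genes tested were called lower and 0.507% higher. Under trametinib 43 members were called lower and 0 higher, with a background of 0.795% lower and 1.08% higher. In the average over both drugs 53 members were called lower and 0 higher, with a background of 1.23% lower and 1.34% higher, and 50 of the 53 differed by at least 2-fold. At an unadjusted p under 0.05, 64 members were lower under cisplatin, with a background of 6.42% lower and 6.17% higher. Under trametinib 71 were lower, with a background of 4.87% lower and 7.79% higher. In the average 85 were lower, with a background of 4.79% lower and 7.83% higher, and in none of the 3 was a member higher. The fitted log2 fold change in the average was below 0 for all 100 members, against 46.3% of all genes, with a median over the members of -1.31. DESeq2, limma-voom, both other scalings and the omission of any 1 drug fish left these 3 counts within 1.5 times of the values given. When the libraries of low TMM factor were left out, the counts were 50 under cisplatin, 58 under trametinib and 69 in the average. The shares of all genes called in these alternatives are not given beside the counts.

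All 100 members passed the filter on low counts, but not all through the same fish. For 90 members at least 5 transgenic drug fish were over the filter's cutoff of 0.199 CPM. The other 10 passed only through the wild-type fish, where they are high, so the filter fixed their direction and their calls are no support. Of the 90, 28 were called lower under cisplatin, 34 under trametinib and 44 in the average, with a median log2 fold change in the average of -1.23. Of the 10, 9 are among the calls under each drug and in the average. The counts above at an unadjusted p, of fold changes below 0 and of differences of medians hold the 10 as well. No count of these without the 10 was made, so their distance from the background is in part fixed by the filter and the minimum level. ENSORLG00000019887, ENSORLG00000001307, ENSORLG00000019191, ENSORLG00000010177 and ENSORLG00000010203, described below, are among the 10, and their fold changes are given as descriptions without p. The minimum mean level of 0.5 CPM, taken over all 60 libraries, sets a like limit within the 90. ENSORLG00000016829, for example, had group means of 0.152 to 0.31 CPM in transgenic fish and 0.79 to 1.26 CPM in wild-type fish. Such members met the minimum through wild-type fish. The counts among the 90 still hold them, and how many there are was not counted. Among the 90, fewer of the members ranked low on the list were called in the average: 11 of the 17 ranked 1 to 25, 16 of the 25 ranked 26 to 50, 10 of the 23 ranked 51 to 75 and 7 of the 25 ranked 76 to 100. In 15 members the unadjusted p in the average was 0.05 or more.

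**Figure D2:**
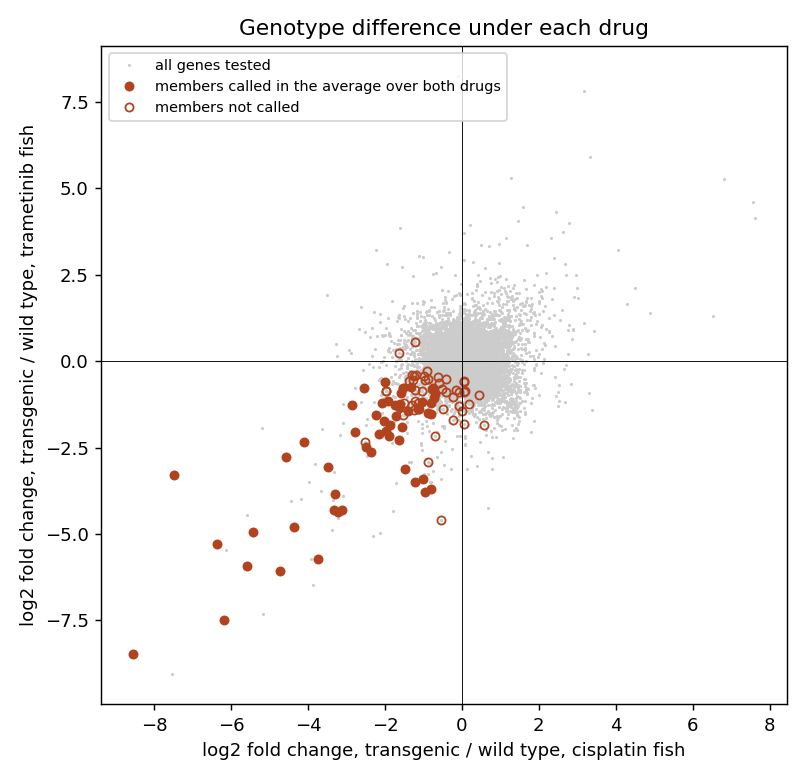
Fitted log2 fold change, transgenic over wild type, under cisplatin (x axis) and under trametinib (y axis) for all 18743 genes tested (grey) and the 100 members (filled where called in the average over both drugs, open otherwise). The 53 called members lie below 0 on both axes, and so do most of the 47 open ones.

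The calls under the 2 drugs compared separate fish, but came from the same fit with a shared estimate of spread. They are therefore not independent. Without cisplatin fish 21 the trametinib calls rose from 43 to 53. In fits of only the groups compared, 24 of the 37 cisplatin calls and 37 of the 43 trametinib calls remained. In the main fit the calls under the 2 drugs shared 29 members. These are 78.4% of the cisplatin calls and 67.4% of the trametinib calls, with a background of 0.309% of all genes called lower under both. Over all genes the 58 shared calls were 20.7% of the 280 calls under cisplatin and 38.9% of the 149 under trametinib. Of the 29 members, 20 are among the 90. A further 8 members were called under cisplatin only, 14 under trametinib only and 49 under neither. A call under a single drug does not show that the drugs differed, and the test of the difference between the 2 genotype differences is given below.

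Fish by fish, the members separated the genotypes without overlap when summarised by their median. For each fish the median over the members of log2 CPM, minus the median of the wild-type control fish, was computed. It lay between -1.76 and -1.10 in the 20 transgenic drug fish and between -0.17 and 0.22 in the 10 wild-type drug fish. The medians over fish were -1.43 in transgenic and 0.04 in wild-type cisplatin fish, and -1.47 in transgenic and -0.06 in wild-type trametinib fish. In the control fish that chose the members it lay between -2.08 and -1.16 in transgenic fish and between -0.50 and 0.43 in wild-type fish. The same median over all genes lay between -0.47 and 0.03 in transgenic drug fish and between -0.02 and 0.02 in wild-type drug fish. The lowest of these all-gene medians in drug fish belonged to fish 21, the drug fish with the lowest TMM factor.

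**Figure D3:**
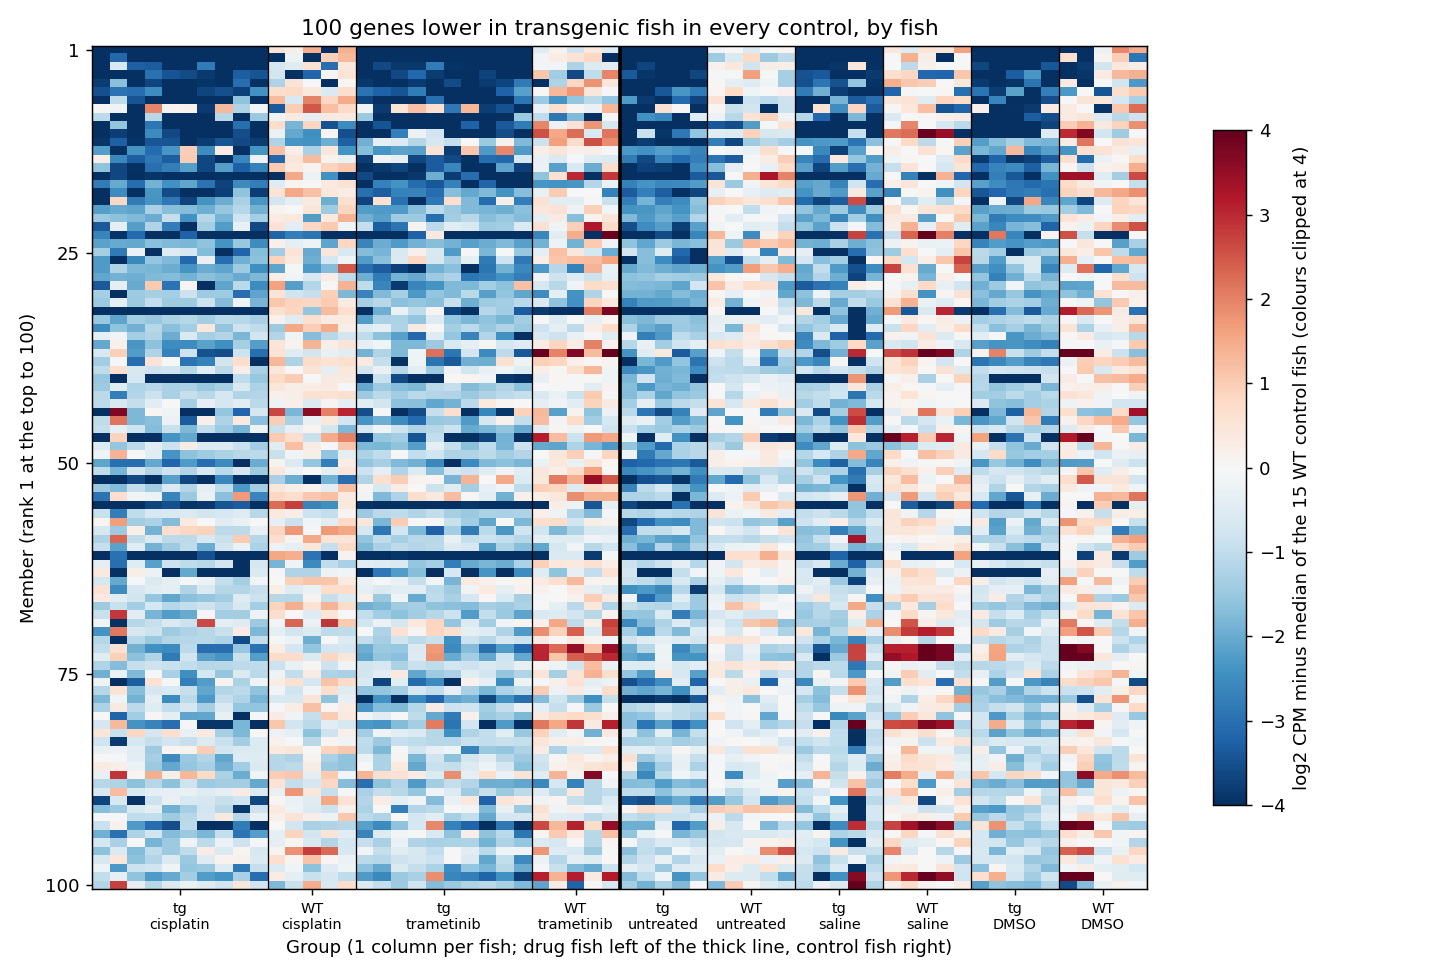
Log2 CPM of each member (rows, by rank) in each fish (columns, by group) minus its median over the 15 wild-type control fish, with colours clipped at 4 on either side. Transgenic columns are mostly blue (lower) and wild-type columns vary about white, in drug fish left of the thick line as in control fish right of it. Some members, such as ENSORLG00000010177 at rank 55, are also blue in part of the wild-type columns. Others, such as ENSORLG00000020006, are red (higher) in part of them.

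Library composition was compared between the genotypes in the same fish. Under cisplatin the 10 most abundant genes of each library held 13.2% ± 1.1 of the counts in transgenic fish and 16.4% ± 1.42 in wild-type fish (SD, n = 10 and 5; two-sided exact permutation test, p = 0.000666, adjusted p = 0.00266 over 4 tests). Under trametinib they held 11.9% ± 1.28 in transgenic and 10.5% ± 1.44 in wild-type fish (SD, n = 10 and 5; exact p = 0.0826, adjusted p = 0.123). The TMM factor averaged 0.95 ± 0.284 in transgenic and 0.874 ± 0.112 in wild-type cisplatin fish (SD, n = 10 and 5; exact p = 0.605, adjusted p = 0.605). It averaged 1.05 ± 0.12 in transgenic and 1.16 ± 0.0723 in wild-type trametinib fish (SD, n = 10 and 5; exact p = 0.0919, adjusted p = 0.123). The part of composition in the member results was not tested beyond the scalings above. Library totals in place of TMM gave 34 members lower under cisplatin and 47 under trametinib.

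In 5 members every transgenic drug fish lay under every wild-type drug fish, which 0.048% of all genes tested did. They are ENSORLG00000019887, ENSORLG00000019191, ENSORLG00000011826, ENSORLG00000003432 and ENSORLG00000015645, of which the last 4 are named after their values were seen. The first 2 are among the 10 that passed the filter only through wild-type fish. Within cisplatin fish 19 members had no overlap, with a background of 1.46%, and within trametinib fish 21, with a background of 0.544%. Both numbers also include members among those 10, ENSORLG00000019887 and ENSORLG00000019191 for example, whose separation is no support. No count without the 10 was made for them. At the other end, in 9 members all 10 wild-type drug fish were at or under the highest transgenic one. The share of all genes with such an overlap was not counted, so this number is not set against a background.

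ENSORLG00000019887, ranked 1, was close to undetected in transgenic fish. Under cisplatin it had between 0 and 0.443 CPM in transgenic fish, with a median of 0.0374, against 0.488, 15.5, 18.9, 35.6 and 36.6 CPM in wild-type fish. Under trametinib it had between 0 and 0.102 CPM in transgenic fish, with a median of 0.0175, against 7.58, 9.35, 9.47, 14.7 and 17.2 CPM in wild-type fish. All 10 wild-type fish lay above all 20 transgenic ones, though 1 wild-type cisplatin fish, fish 41, was only just above the highest transgenic fish. The 20 transgenic drug fish held 38 reads of the gene in all and the 10 wild-type drug fish 8390. The fitted log2 fold change was -8.56 ± 0.78 (SE) under cisplatin and -8.47 ± 0.78 under trametinib. In the control fish, where it was chosen, 2 wild-type DMSO fish were as low as transgenic fish, at 0.0365 and 0.0726 CPM.

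ENSORLG00000011826, ranked 28, showed a smaller difference, with every fish of both genotypes well above 0. Under cisplatin it had between 10.3 and 13.5 CPM in transgenic fish, with a median of 11.9, against 21.5, 27.3, 39.8, 52.3 and 52.7 CPM in wild-type fish. In trametinib fish it had between 5.73 and 18.2 CPM in transgenic fish, with a median of 9.35, against 23.7, 24.3, 29.9, 33.9 and 39.2 CPM in wild-type fish. The groups did not overlap under either drug, and the transgenic cisplatin fish lay within a narrow band. The averaged log2 fold change was -1.64 ± 0.16 (SE, adjusted p = 1.15e-07).

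ENSORLG00000015645, ranked 41, had between 2.54 and 5.23 CPM in transgenic cisplatin fish, with a median of 3.00, against 6.97, 8.61, 8.99, 9.18 and 9.97 CPM in wild-type ones. Under trametinib it had between 1.74 and 3.72 CPM in transgenic fish, with a median of 2.42, against 5.43, 6.95, 7.43, 7.53 and 8.04 CPM in wild-type fish. Both genotypes were tightly grouped, and the averaged log2 fold change was -1.42 ± 0.13 (SE, adjusted p = 1.37e-08). ENSORLG00000003432, ranked 33, had between 0.897 and 2.97 CPM over the 20 transgenic drug fish and between 3.03 and 7.01 CPM over the 10 wild-type ones, with an averaged log2 fold change of -1.48 ± 0.15 (SE, adjusted p = 1.41e-07). ENSORLG00000019191, ranked 6, had between 0 and 0.182 CPM over the transgenic drug fish and between 0.615 and 3.21 CPM over the wild-type ones, with an averaged log2 fold change of -4.58 ± 0.39 (SE).

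**Figure D4:**
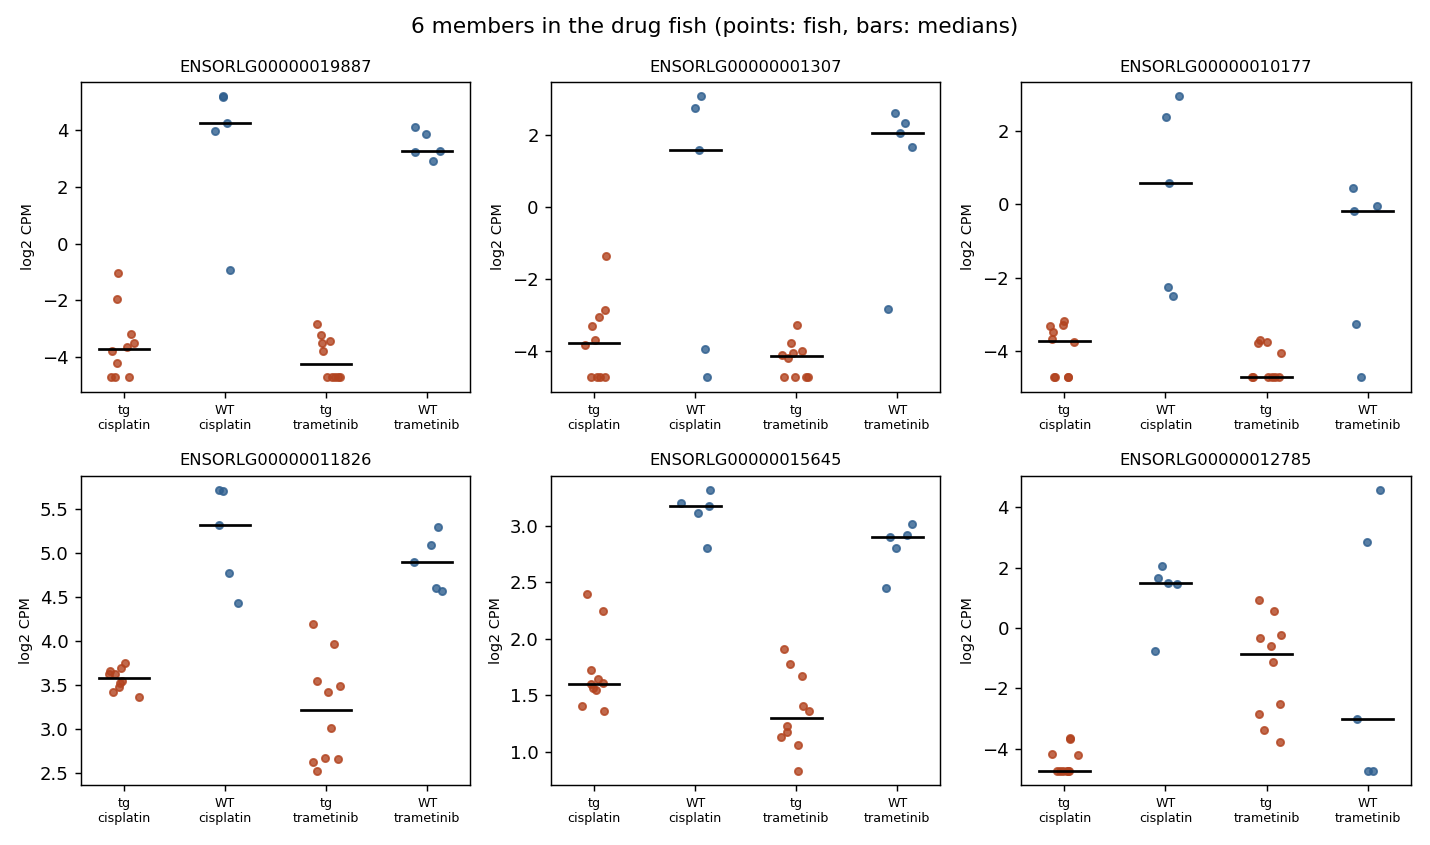
Log2 CPM of 6 members in each of the 30 drug fish (points) with the group median (bar). ENSORLG00000019887, ENSORLG00000011826 and ENSORLG00000015645 have no overlap between transgenic and wild-type fish, while ENSORLG00000001307, ENSORLG00000010177 and ENSORLG00000012785 have wild-type fish that sit among the transgenic ones.

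Other members were nearly undetected in transgenic fish but present in only part of the wild-type fish. ENSORLG00000001307, ranked 2, had between 0 and 0.355 CPM in transgenic cisplatin fish, with a median of 0.036, against 0, 0.0276, 2.98, 6.70 and 8.38 CPM in wild-type ones. In trametinib fish it had between 0 and 0.0658 CPM in transgenic fish, with a median of 0.019, against 0.104, 3.16, 4.15, 4.97 and 6.07 CPM in wild-type fish. Under cisplatin 2 wild-type fish (38 and 40) lay within the transgenic range. Under trametinib the genotypes did not overlap, although fish 52 was only just above the transgenic fish. The other 7 wild-type fish lay far above. The averaged log2 fold change was -6.84 ± 0.71 (SE). Under cisplatin alone it was -6.19 ± 0.96, and -4.32 by limma-voom. Limma-voom did not call it, and no call of this gene in any setting is read as support.

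A wider count was made with a level of 1 CPM, which was chosen after the values were seen. It also takes in members that were detected in transgenic fish. ENSORLG00000013692, for example, had a median of 0.505 CPM in transgenic cisplatin fish. In 12 members all 20 transgenic drug fish were under 1 CPM while at least 1 wild-type drug fish was at or above it. The number of wild-type drug fish at or above 1 CPM was 9 of 10 for ENSORLG00000019887 and between 2 and 7 of 10 for the other 11. Seen by fish, each wild-type drug fish was at or above 1 CPM in 5 to 9 of the 12 members, and no transgenic drug fish was in any, as the choice of the 12 requires. In the control fish, which chose the members, the numbers were 0 or 1 of the 12 in transgenic fish and 4 to 9 in wild-type fish. No wild-type fish was under 1 CPM in all 12, and none was at or above it in all 12. At the other extreme, 33 members were at or above 1 CPM in all 30 drug fish. The share of all genes that met either rule was not counted, so neither number is set against a background.

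ENSORLG00000010177 and ENSORLG00000010203, ranked 55 and 61, are an example in which the same wild-type fish were low. They are 2 of the 12 and are named after their values were seen. ENSORLG00000010177 had between 0 and 0.073 CPM over the 20 transgenic drug fish, against 0.138, 0.17, 1.46, 5.19 and 7.66 CPM in wild-type cisplatin fish and 0, 0.0665, 0.836, 0.932 and 1.31 CPM in wild-type trametinib fish. ENSORLG00000010203 had between 0 and 0.266 CPM over the transgenic drug fish, against 0.0636, 0.276, 2.61, 6.64 and 7.01 CPM in wild-type cisplatin fish and 0.0577, 0.133, 1.59, 1.59 and 2.23 CPM in wild-type trametinib fish. In both genes fish 40 and 41 were the low cisplatin fish and fish 48 and 51 the low trametinib fish. Their averaged log2 fold changes were -5.82 ± 0.65 (SE) and -5.19 ± 0.58 (SE).

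Whether the genotype difference itself differed between the drugs was tested in the same fit. A single member, ENSORLG00000020303, was called, with a log2 value lower under cisplatin and a background of 1.22%. No member was called in the other direction, where the background was 0.101%. Both numbers were thus near the background. At an unadjusted p under 0.05, 7 members had a lower and 9 a higher log2 value under cisplatin than under trametinib, with a background of 7.16% lower and 5.27% higher. Without the libraries of low TMM factor 6 members were called, without fish 62 alone 7, without fish 51 alone 2, and without fish 39, 42, 49 or 52 none. DESeq2 called 4 and limma-voom 3. No share of all genes called is given for these settings, so these counts cannot be read as particular to the members.

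ENSORLG00000020303, ranked 48, was called lower in transgenic fish under cisplatin and was not called under trametinib. Under cisplatin it had between 19.7 and 71.7 CPM in transgenic fish, with a median of 35.7, against 43.8, 55.5, 71, 123 and 133 CPM in wild-type fish. Under trametinib it had between 12.7 and 45.1 CPM in transgenic fish, with a median of 18.6, against 11.7, 13.3, 14.1, 16.1 and 24.4 CPM in wild-type fish. The genotypes overlapped under both drugs, and under trametinib the transgenic median was the higher one. By edgeR's quasi-likelihood test the log2 fold change was -1.21 ± 0.29 (SE, adjusted p = 0.024) under cisplatin and 0.57 ± 0.31 (adjusted p = 0.464) under trametinib. The difference between the 2 was -1.78 ± 0.43 on the log2 scale (adjusted p = 0.0313). It was not called with library totals in place of TMM (adjusted p = 0.257), in a fit of all 60 libraries (0.0503), or without fish 39, 42, 48, 49 or 52. Its adjusted p over all the alternatives ran from 0.00457 to 0.257.

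ENSORLG00000012785, ranked 32, had the second lowest log2 fold change under cisplatin among the called members. In transgenic cisplatin fish it had between 0 and 0.042 CPM, with 6 of 10 fish at 0, against 0.552, 2.69, 2.76, 3.13 and 4.13 CPM in wild-type ones. In trametinib fish it had between 0.0359 and 1.85 CPM in transgenic fish, with a median of 0.524, against 0, 0, 0.0865, 7.16 and 24.0 CPM in wild-type fish. The genotypes did not overlap under cisplatin, whereas under trametinib 3 wild-type fish lay at or under most of the transgenic fish and 2 lay far above all of them. Over the groups its mean lay between 0.0117 and 0.669 CPM in transgenic fish and between 0.917 and 6.42 CPM in wild-type fish. It met the minimum mean level of 0.5 CPM mainly through wild-type fish, so its genotype fold changes are given as descriptions. By edgeR's test its log2 fold change was -7.48 ± 1.29 (SE) under cisplatin and -3.30 ± 0.95 under trametinib, where it was not called. The trametinib value has the opposite sign to the difference of median log2 CPM, which was 2.15. The difference between the drugs, -4.18 ± 1.70, was not called (adjusted p = 0.28).

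Cisplatin fish were also compared with trametinib fish within each genotype, a comparison that contains the vehicles as well as the drugs. In transgenic fish 5 members were called lower and 6 higher under cisplatin, with a background of 6.18% of all genes lower and 6.2% higher. In wild-type fish 8 were called lower and 4 higher, with a background of 2.52% lower and 3.68% higher. The shares of members were thus near the background, other than the share lower in wild-type fish. Both counts depended on the setting. Without the libraries of low TMM factor they were 10 in transgenic and 23 in wild-type fish. The omission of fish 21, 31, 58, 59, 60, 61, 64, 65, 66 or 67 left between 5 and 7 in transgenic fish. The omission of fish 40, 41, 42 or 50 left 6 or 7 in wild-type fish. The shares of all genes called in these settings are not given, so these counts are not set against a background.

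ENSORLG00000005555, ranked 52, was lower under cisplatin than under trametinib in both genotypes. In transgenic fish it had between 0 and 0.554 CPM under cisplatin, with a median of 0.102, and between 0.704 and 7.55 CPM under trametinib, with a median of 2.88. In wild-type fish it had 0, 0.286, 0.638, 0.678 and 1.05 CPM under cisplatin and 3.52, 7.25, 11.2, 14.8 and 30.2 CPM under trametinib. Cisplatin and trametinib fish did not overlap in either genotype. The log2 fold change, cisplatin over trametinib, was -4.31 ± 0.60 (SE, adjusted p = 1.29e-05) in transgenic fish and -4.65 ± 0.83 (adjusted p = 0.000663) in wild-type fish. In saline its median was 1.02 CPM in transgenic fish, against 3.66 CPM in wild-type fish, and in DMSO 1.84 CPM in transgenic fish, against 3.82 CPM in wild-type fish. Its untreated medians were lower than in either vehicle, at 0.197 CPM in transgenic fish and 0.829 CPM in wild-type fish.

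ENSORLG00000005547, ranked 12 and picked out after its values were seen because it stands in the next row of the count table, had the same order of drug groups. Under cisplatin its median was 0.516 CPM in transgenic fish, against 1.36 CPM in wild-type fish, and under trametinib 4.14 CPM in transgenic fish, against 22.5 CPM in wild-type fish. Its untreated medians were 0.338 CPM in transgenic fish, lower than under cisplatin, and 2.68 CPM in wild-type fish. The log2 fold change, cisplatin over trametinib, was -3.04 ± 0.34 (SE, adjusted p = 5.24e-07) in transgenic and -3.70 ± 0.49 (adjusted p = 1.45e-05) in wild-type fish. Its genotype difference was called under both drugs, at -1.63 ± 0.38 (adjusted p = 0.0192) under cisplatin and -2.29 ± 0.36 (adjusted p = 0.000497) under trametinib. The genotype difference of ENSORLG00000005555 was called only in the average over the drugs, at -1.73 ± 0.44 (adjusted p = 0.0265).

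Of the members higher under cisplatin in transgenic fish, ENSORLG00000002315, ranked 78, had between 0.39 and 2.22 CPM under cisplatin, with a median of 0.874, and between 0.0704 and 0.616 CPM under trametinib, with a median of 0.329. This was a log2 difference of 1.63 ± 0.37 (SE, adjusted p = 0.00441). For ENSORLG00000019018, ranked 68, it was 1.54 ± 0.50 (adjusted p = 0.0433), which rested on fish 21. That fish had 10.1 CPM, where the other 9 transgenic cisplatin fish had between 0.267 and 1.36 CPM and the transgenic trametinib fish between 0.269 and 0.755 CPM. Without fish 21 the value was 0.41 (adjusted p = 0.396), and over all the alternatives the adjusted p ran from 0.00555 to 0.46.

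In wild-type fish ENSORLG00000016205, ranked 7, had 3.15, 8.61, 11.6, 13.7 and 19.2 CPM under cisplatin, against 0.909, 1.62, 1.62, 1.76 and 2.26 CPM under trametinib. The 2 groups did not overlap, and the log2 fold change was 2.78 ± 0.86 (SE, adjusted p = 0.0496). That call lay at the threshold: it was lost on omission of 20 of the 30 drug fish, 1 at a time, and the adjusted p ran from 0.0021 to 0.128. ENSORLG00000020303 was also higher under cisplatin in wild-type fish, by 2.42 ± 0.37 (SE, adjusted p = 0.000121). ENSORLG00000017946, ranked 23, was lower, with 0.404, 0.424, 1.64, 2.01 and 2.30 CPM in wild-type cisplatin fish against 0.244, 2.51, 11.6, 43.2 and 237 CPM in wild-type trametinib fish. Its levels under trametinib were spread over a wide range, and the groups overlapped. Its log2 fold change was -5.44 ± 1.59 (SE, adjusted p = 0.0382), and -3.42 (adjusted p = 0.137) without fish 52. It was not called without any 1 of fish 38, 39, 40, 41, 42 or 50 either, and over all the alternatives the adjusted p ran from 0.00091 to 0.137.

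**Figure D5:**
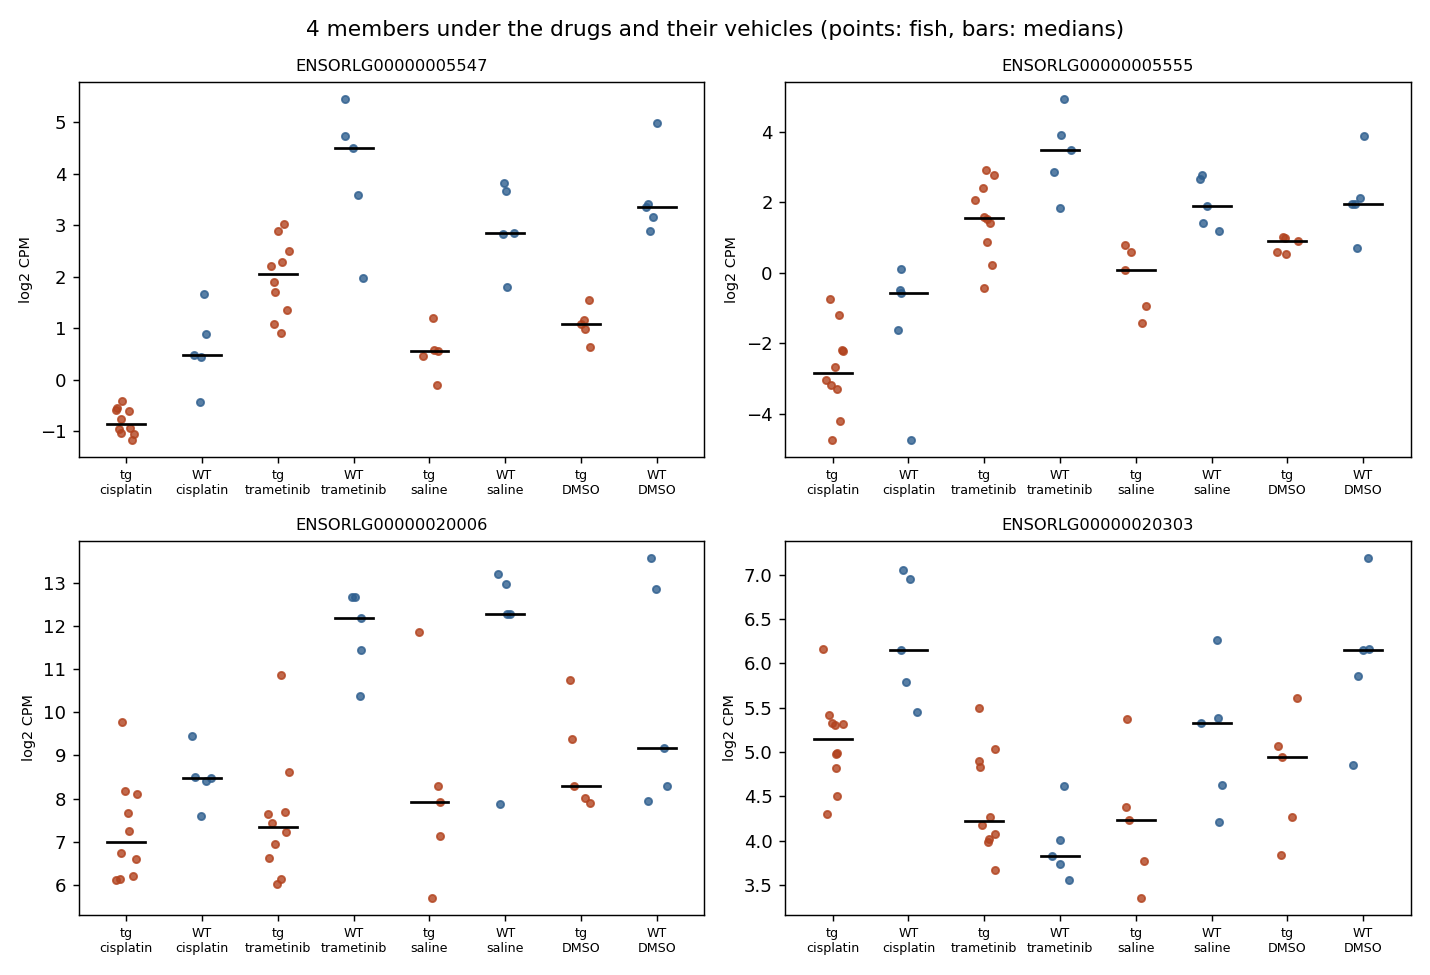
Log2 CPM of 4 members in each drug and vehicle fish (points) with the group median (bar). Untreated fish are not shown. Among the groups shown, ENSORLG00000005547 and ENSORLG00000005555 are lowest under cisplatin in either genotype. ENSORLG00000020006 has its highest median among the drug groups in wild-type trametinib fish, which overlap with transgenic trametinib fish. ENSORLG00000020303 is high in wild-type cisplatin fish and low in wild-type trametinib fish.

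Levels under the drugs were set beside those under the vehicles as a description only, since vehicle fish chose the members. The median over the members of the drug-minus-vehicle difference of median log2 CPM was -0.004 for cisplatin and 0.02 for trametinib in transgenic fish. In wild-type fish it was -0.12 for cisplatin and -0.16 for trametinib. Over all genes the values were 0.02 and -0.02 in transgenic fish and 0.04 and 0.003 in wild-type fish. Single members moved further in both directions, between -5.58 and 4.24 in wild-type fish and between -3.63 and 4.15 in transgenic fish.

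Few pairs of members reached an r over 0.9 from fish to fish, which is a strict level. Pearson's r of log2 CPM was computed for all 4950 pairs over the 10 wild-type drug fish after removal of each drug group's mean, as a description, since all points share library and depth. The median r was 0.002, with 19 pairs over 0.9 and 1 under -0.9. Over the 20 transgenic drug fish the median was 0.02, with 10 pairs over 0.9. The share of all gene pairs over 0.9 was not counted, so these numbers are not set against a background. Members that varied together, at this level or a lower one, are counted as separate calls above. Only 6 pairs were over 0.9 in both genotypes. They are the pair ENSORLG00000015140 and ENSORLG00000005308, and 5 of the pairs among ENSORLG00000020006, ENSORLG00000013603, ENSORLG00000019810 and ENSORLG00000006286.

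Those 4 genes, ranked 72, 81, 93 and 99 and named after their values were seen, shared 1 pattern over the groups, but not alone. ENSORLG00000016428 had an r with ENSORLG00000006286 of 0.97 over wild-type and 0.84 over transgenic drug fish. ENSORLG00000020058 had 10657 and 9784 reads in wild-type DMSO fish 43 and 44, against 1034, 345 and 320 in fish 45, 46 and 47. How many further members shared the pattern was not counted. ENSORLG00000020006 had between 69.7 and 879 CPM in transgenic cisplatin fish, with a median of 130, against 192, 336, 356, 359 and 702 CPM in wild-type ones. Under trametinib it had between 64.6 and 1869 CPM in transgenic fish, with a median of 162, against 1320, 2783, 4652, 6490 and 6546 CPM in wild-type fish. Under cisplatin 4 transgenic fish lay above the lowest wild-type fish, and under trametinib only fish 62 did.

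The same 2 transgenic fish, 21 and 62, were the highest of their groups in all 4 genes, in CPM scaled with TMM. For fish 21 this rested on its TMM factor of 0.291. Relative to library totals alone, ENSORLG00000020006 was higher in fish 20, with 18010 of 54942742 counts, against 9913 of 38688194 in fish 21. The log2 fold change of ENSORLG00000020006 was -0.81 ± 0.67 (SE, adjusted p = 0.643) under cisplatin and -3.69 ± 0.67 (adjusted p = 0.00223) under trametinib, and the difference between the drugs was not called (2.87 ± 0.99, adjusted p = 0.177). None of the 4 was called under cisplatin. Under trametinib ENSORLG00000019810 (-3.41, adjusted p = 0.024) and ENSORLG00000006286 (-3.49, adjusted p = 0.0042) were called as well, and ENSORLG00000013603 was not (-2.91, adjusted p = 0.0861). In the vehicle fish that chose it, ENSORLG00000020006 had 245, 314, 575, 7383 and 12249 CPM in wild-type DMSO fish and 233, 4955, 4986, 8015 and 9363 CPM in wild-type saline fish, which fell into low and high fish within each group.

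Other close pairs in wild-type fish did not hold in transgenic fish. ENSORLG00000010177 and ENSORLG00000010203 had an r of -0.10 over the 20 transgenic drug fish, where both were at or near 0, and 0.96 over the 10 wild-type drug fish. ENSORLG00000011759 and ENSORLG00000011765 had 0.38 over transgenic and 0.99 over wild-type drug fish. ENSORLG00000019887 and ENSORLG00000018864 had 0.43 over transgenic and 0.95 over wild-type drug fish. Both were near 0 in most transgenic drug fish, with medians of 0.0374 and 0.0865 CPM under cisplatin, so the lower r there rests on few reads. Of the 100 members, 8 had another member in the next row of the count table, among them ENSORLG00000010177 with ENSORLG00000010203 and ENSORLG00000011759 with ENSORLG00000011765. How reads shared by overlapping or near-identical genes were counted is not stated in the sources at hand, and levels within such a pair may not be independent.

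Not every member held its direction. ENSORLG00000018384, the member ranked 100, had between 0.257 and 4.43 CPM in transgenic cisplatin fish, with a median of 0.425, against 0.153, 0.319, 0.403, 1.04 and 1.82 CPM in wild-type ones. In trametinib fish it had between 0.16 and 0.413 CPM in transgenic fish, with a median of 0.241, against 0.0345, 0.115, 0.383, 0.621 and 0.783 CPM in wild-type fish. The genotypes overlapped throughout. The log2 fold change was 0.04 ± 0.64 (SE, adjusted p = 0.985) under cisplatin and -0.57 ± 0.63 (adjusted p = 0.749) under trametinib, and the sign under cisplatin turned to -0.77 without fish 21. Under cisplatin 9 members had a fitted log2 fold change above 0, the highest 0.56, and under trametinib 2, the highest 0.57. None of these was called higher.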

How the data were processed

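Per the labels, poly-A RNA of whole fish was sequenced. The deposited values are unnormalised read counts, whole numbers for 20459 genes in 60 columns made by the authors, and each column matched 1 sample by name. Per the submitters' processing notes, the tools were TopHat2 (2.2.4) and featureCounts. Which genome build, annotation and strand setting they used, and how shared reads were treated, is not given in the sources used here. The smallest chi-square within groups was 43.86 per gene over 170 pairs, so no 2 libraries were counted as 1.

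The members were found with edgeR 4.0.16 in R 4.3.3 (TMM over 60 libraries, prior count 2, mean CPM of 0.5 or more). The mean level and the scaling used all 60 libraries, drug fish included. The members, and every list and test, were chosen with earlier results of these data known. The 30 drug fish in 4 groups were fitted with edgeR's quasi-likelihood test (filterByExpr, TMM, robust dispersions) over 18743 genes, with Benjamini-Hochberg adjustment over all of them and a threshold of 0.05. Standard errors come from the F statistic. Levels are CPM scaled over the 60 libraries, as printed per fish, and differences of medians are on the log2 scale with the prior count, which understates changes of low genes.

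Alternatives were DESeq2 (1.42.0), limma-voom (3.58.1), DESeq2's size factors, library totals, no filter, only the groups compared, all 60 libraries, the libraries with TMM factors under 0.8 left out, each drug fish left out, and 3 other ways of choosing the members. The rule for naming took the 2 largest log2 fold changes in each direction among called members per comparison, the 2 lowest scores, and the genes just inside and outside the boundary. Others are said to be named after their values were seen. CPM is not scaled by length, so levels are not compared between genes. A level of 1 CPM rests on about 51 reads at the median library total before scaling with TMM, and lower levels on fewer. In libraries of low TMM factor a scaled level rests on fewer reads. In fish 21, for example, 4.43 CPM of ENSORLG00000018384 were 50 reads.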

Additional observations from a re-analysis of the deposited data

Results flagged for a closer look

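In 50 comparisons within groups of 5 or 10 fish the highest or lowest fish was set against the others by Dixon's criterion at the 95% level. The criterion used log2 CPM for single genes, and the median over the members otherwise. In 7 of them a fish was far from the rest, where chance gives about 1 in 20. Fish 41 had 0.488 CPM of ENSORLG00000019887 where the other wild-type cisplatin fish had between 15.5 and 36.6 CPM. Fish 52 had 0.104 CPM of ENSORLG00000001307 where the other wild-type trametinib fish had between 3.16 and 6.07 CPM. Fish 40 had 0.552 CPM of ENSORLG00000012785 where the other wild-type cisplatin fish had between 2.69 and 4.13 CPM. Fish 21 was the highest transgenic cisplatin fish by this criterion in ENSORLG00000018384, at 4.43 CPM where the others had between 0.257 and 0.876 CPM. It was also the highest in ENSORLG00000019018, at 10.1 CPM where the others had between 0.267 and 1.36 CPM. That fish also had the lowest TMM factor of the drug fish, at 0.291, and its levels of these 2 genes rested on 50 and 114 reads. The part of the factor in these levels was not tested.

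The median over the members, relative to the wild-type control fish, was 0.43 in fish 34 where the other wild-type saline fish had between 0 and 0.11. It was -0.50 in fish 69 where the other wild-type untreated fish had between -0.18 and -0.09. Both fish took part in the choice of the members. The genotype difference of ENSORLG00000020303 differed between cisplatin and trametinib by -1.78 on the log2 scale, by the test of that difference in edgeR (adjusted p = 0.0313).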

How the results depend on the processing

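The counts of members lower in transgenic fish kept to within 1.5 times of the values given under every alternative run, from 25 (only the groups compared) to 50 under cisplatin, 40 to 58 under trametinib and 53 to 69 in the average. With 1 drug fish left out at a time they ran from 32 to 48, 35 to 53 and 48 to 62. In every setting 19 members were called under cisplatin, 23 under trametinib and 43 in the average. All of these counts include members among the 10 that passed the low-count filter only through wild-type fish. ENSORLG00000019887 and ENSORLG00000001307, for example, are among the 43. No count without the 10 was made for the alternatives. The shares of all genes called in each alternative are not given beside these counts, so they are not set against a background. Members chosen by group means shared 68 of the 100, those chosen with libraries of low TMM factor left out 81, and those with a mean CPM of 1 or more 79.

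Other counts moved. For the difference between the drugs (1 member) library totals and the fit of all 60 libraries gave 0, DESeq2 4, limma-voom 3 and the omission of libraries of low TMM factor 6, and 1 fish left out gave 0 to 7. For cisplatin against trametinib in transgenic fish (11) library totals gave 7, limma-voom 5 and the compared groups alone 6, and 1 fish left out gave 5 to 11. In wild-type fish (12) the compared groups alone gave 21 and the omission of libraries of low TMM factor 23, and 1 fish left out gave 6 to 16. The shares of all genes called in these settings are not given beside the counts. The cause of the moves was not tested.

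Library totals shifted the median log2 value of all genes by 0.17 under cisplatin, -0.15 under trametinib, 0.29 for the difference between the drugs, and -0.12 and -0.44 for cisplatin against trametinib in transgenic and wild-type fish. Under that scaling 136 genes were called lower and 119 higher under cisplatin, against 280 and 95 with TMM. It called 5 members lower and 2 higher between the drugs in transgenic fish, and 12 lower and 2 higher in wild-type fish.

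ENSORLG00000018384 changed sign. Under cisplatin it was -0.24 with library totals, -0.18 with limma-voom and -0.33 without libraries of low TMM factor, and -0.77 to 0.66 with 1 fish left out. Under trametinib it was 0.047 with limma-voom, and its average ran from -0.67 to 0.041 with 1 fish left out. The call of ENSORLG00000012785 between the drugs in transgenic fish was lost with limma-voom (adjusted p = 0.0566, from 3.01e-05 to 0.0566 over all alternatives).

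No paired analysis was possible because each fish number occurs once. A fit of only the groups compared could not be made for the average and for the difference between the drugs, which need all 4 groups.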
